A study of Mus musculus with 12 samples.

Results

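The comparison of full colon between mice lacking Gpr15l (KO) and wild-type mice (WT) rested on 6 of the 12 RNA libraries of the series, 3 per genotype, chosen by tissue and taken across all genes. All mice had acute colitis from dextran sulfate sodium (DSS), which injures the colonic epithelium, so that no library came from an untreated colon and both groups share the injury. The KO mice carried Gpr15l-/-, and the labels do not give the strain, age, design of the deletion, number of animals or region of colon sampled. The labels do not say whether each library is a separate mouse. A p-value here therefore weighs a difference against the spread of 3 libraries per group, and that spread may be technical.

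Gpr15l encodes a small secreted protein made by epithelial cells of the colon and other barrier surfaces, and it is a ligand of Gpr15, a receptor that guides T cells to the large intestine. The colon is lined by crypts in which stem cells at the base give rise to absorptive colonocytes, goblet cells, enteroendocrine cells and tuft cells. Fibroblasts, smooth muscle, vessels and the enteric nervous system lie beneath, together with resident and recruited leukocytes. In DSS colitis the surface epithelium is lost and then rebuilt, and the proximal and distal colon differ in their homeobox genes, transport genes and antimicrobial genes. In whole tissue, fewer cells of a type and less RNA per cell cannot be told apart.

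The 6 libraries held between 45.4 and 140.7 M counts each (M, 1e6). The libraries held the tissue that the labels name. All 18 epithelial markers, all 21 smooth muscle genes, 21 of 22 enteric neuron genes, all 20 blood endothelial genes and all 24 T cell genes passed the filter on low counts. Of the lists for other tissues, 10 of 11 mesothelial genes, 8 of 9 red blood cell genes, 8 of 12 adipose genes, 9 of 16 skeletal muscle genes, 10 of 19 small intestine genes, 10 of 20 squamous genes, 5 of 15 exocrine pancreas genes and 3 of 14 male accessory gland genes passed it, and the squamous keratin Krt5 did not. Levels below are counts per 1e6 reads (CPM) after TMM scaling, a library scaling that sets most genes equal on average. Values are given for replicates 1, 2 and 3 of a group in that order, and fold changes are KO to WT on the log2 scale from edgeR's quasi-likelihood fit with their standard errors (SE).

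The deleted gene separated the genotypes in every library. Gpr15l stood at 963, 358 and 596 CPM in WT and 0.188, 0.224 and 0.130 CPM in KO. Its log2 fold change was -11.82 (SE 0.58) with an adjusted p of 0.00238 by edgeR, and it was the only gene of 19303 tested to pass an adjusted p of 0.05, which is 0.00518% of them. Without KO replicate 2, no gene passed. The lowest adjusted p of any other gene was 0.439, that of Cdhr1, so no statement below about another gene rests on a call by edgeR's test. DESeq2 called 33 genes (0.171%), 14 lower (0.0725%) and 19 higher (0.0984%), and limma-voom called the deleted gene alone. An edgeR fit of all 12 libraries called 2 colon differences (0.00953%), 1 lower and 1 higher (0.00476% each), the latter being Cdhr1.

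The gene with the next lowest p lay beside the deleted gene on chromosome 14 (GRCm38). Cdhr1 belongs to the cadherin-related genes and is best known from the outer segments of photoreceptors. It has its start 15.7 kb from that of Gpr15l on the same strand. Its level was 27.97, 10.4 and 14.8 CPM in WT and 514, 1145 and 369 CPM in KO. Every KO library lay far above every WT library. The log2 fold change was 5.25 (SE 0.61), and 4.64 to 5.75 when 1 library was left out, with an adjusted p of 0.439 by edgeR. Lrit2, a retinal gene whose start is 46.1 kb away, was barely detected at 0.156, 0 and 0.0417 CPM in WT and 0.240, 0.976 and 0.285 CPM in KO, and its groups did not overlap either. The 2 remaining tested genes within 1 Mb did not stand apart. Ccser2, with its start 145.2 kb away, gave 0.24 (SE 0.19), and Ghitm, a mitochondrial inner membrane gene 21.2 kb on the other side, gave 0.23 (SE 0.22). Of 22 genes annotated in that window, 5 were tested. Of 11 further photoreceptor genes, 8, among them Crx and Nrl, did not pass the filter on low counts, and the 3 tested ones (Prom1, Pcdh15 and Rom1) overlapped.

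Genes around Fgfbp3 on chromosome 19 were also read, a locus known from earlier results of these data. Fgfbp3, which binds fibroblast growth factors and releases them from matrix, stood at 0.647, 1.05 and 0.570 CPM in WT and 3.67, 5.22 and 2.87 CPM in KO, a log2 fold change of 2.38 (SE 0.41). Ide, which encodes the insulin-degrading enzyme and starts 418.2 kb away, was at 45.5, 72.8 and 64.2 CPM in WT and 129.7, 83.8 and 121 CPM in KO. The transcription-associated ATPase gene Btaf1, 6.5 kb from the start of Fgfbp3, overlapped between groups, at 31.2, 36.4 and 39.7 CPM in WT and 67.5, 35.4 and 72.98 CPM in KO. Of the 17 tested genes within 1 Mb, 3 were higher without overlap (Fgfbp3, Ide and an antisense transcript), against 7.36% of all genes. Fgfbp3, around which the window was drawn, is among the 3. Since the locus was chosen from these data, this share and the values from other libraries of the series below are descriptions and no independent support. In the same window 1 was lower without overlap, against 7.14%, and the median log2 fold change was 0.12. Tnks2 and Cpeb3, on either side of Fgfbp3 and Btaf1, gave 0.10 (SE 0.22) and 0.47 (SE 0.35). The other 6 libraries of the series came from a fraction that the labels call LPMC. There the level of Ide was 77.8, 85.9 and 106 CPM in WT and 158, 185 and 169 CPM in KO, on a scaling over all 12 libraries. Fgfbp3 in LPMC was at 1.26, 1.22 and 1.21 CPM in WT and 2.42, 3.01 and 3.17 CPM in KO, again without overlap. Cdhr1 there was at 7.28, 5.78 and 9.74 CPM in WT and 147, 156 and 121 CPM in KO.

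Since 1 gene passed the test, the groups were also compared by whether they overlapped. The KO and WT libraries did not overlap for 2798 genes (14.5%), of which 1378 were lower (7.14%) and 1420 higher (7.36%) in KO. The number with an unadjusted p under 0.05 was 1504 (7.79%), of which 863 were lower (4.47%) and 641 higher (3.32%). The median log2 fold change was 0.0062, 49.5% of genes lay below 0, and 59.1% kept 1 sign in all 6 fits without 1 library. These shares are the background against which the gene lists below are read.

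**Figure D1:**
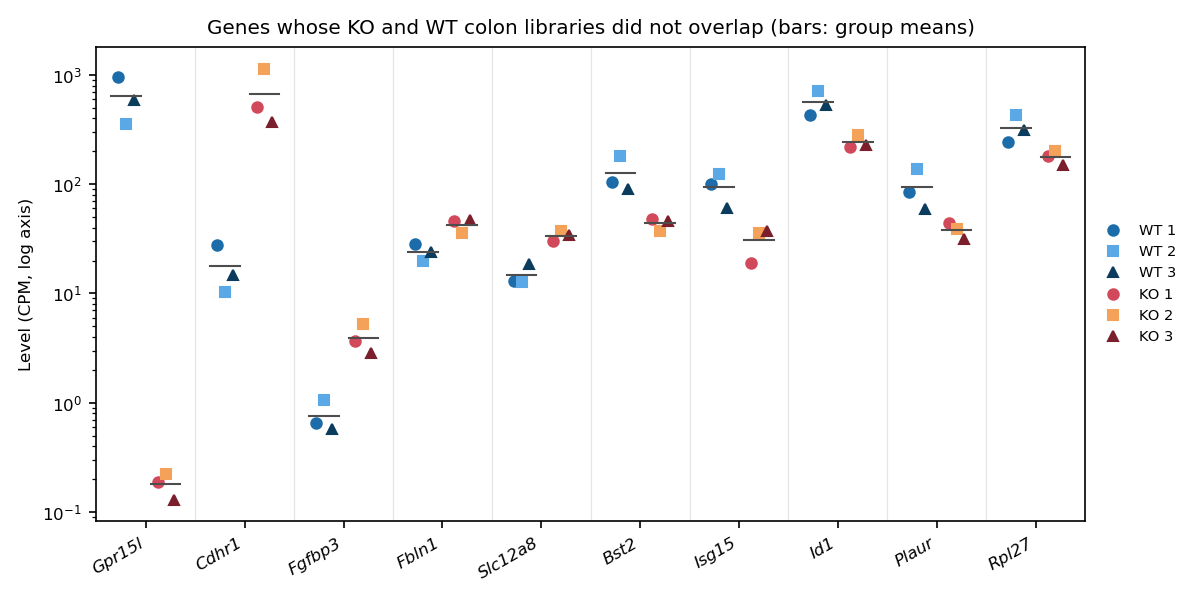
Levels in CPM on a log axis of 10 genes in the 3 WT libraries (blue) and the 3 KO libraries (red and orange) of full colon, with a bar at each group mean. Gpr15l lies near 0.2 CPM in KO, Cdhr1 at 369 CPM or more in KO against 28.0 CPM or less in WT, and none of the 10 genes overlaps between groups.

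Much of the spread among the 6 libraries followed single libraries and not the genotype. The clearest case was lymphoid tissue in WT replicate 1. This library held 169 CPM of Cd79a, a part of the B cell receptor, against 0.457 to 3.24 CPM in the others. It stood at least 8-fold above all 5 other libraries for 104 genes, and each of the others for 2 genes at most. The median log2 fold change of 23 B cell and follicle genes was -4.10 with all libraries and 0.08 without this one. Of the 1713 genes with a log2 fold change beyond 1 in either direction that could be compared, 176 (10.27%) changed sign without WT replicate 1.

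**Figure D2:**
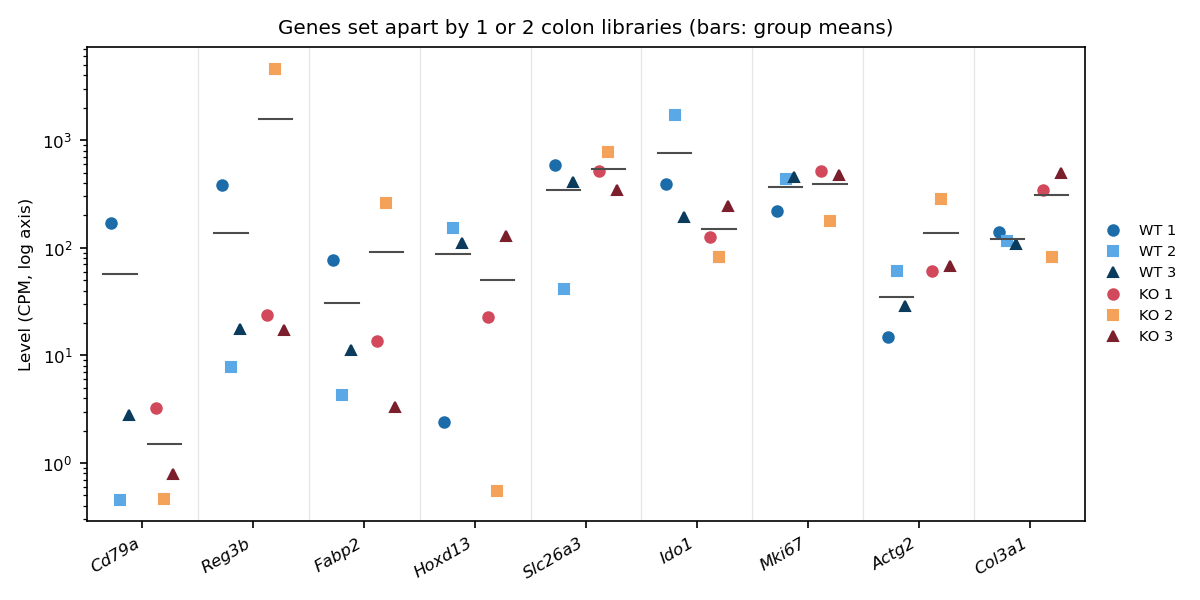
Levels in CPM on a log axis of 9 genes in the 3 WT and 3 KO colon libraries, with a bar at each group mean. WT replicate 1 alone is high for Cd79a, WT replicate 1 and KO replicate 2 are high for Reg3b and Fabp2 and low for Hoxd13, and WT replicate 2 is low for Slc26a3 and high for Ido1.

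A separate pattern joined WT replicate 1 with KO replicate 2, across the genotypes, in some genes that mark position along the colon. Hoxd13, a homeobox gene of the hindgut end, was at 2.40, 153 and 109.8 CPM in WT and 22.7, 0.544 and 127 CPM in KO. Hoxd10 of the same cluster was at 0.791, 16.4 and 6.11 CPM in WT and 1.01, 0.0640 and 11.8 CPM in KO. Hoxb13, another posterior gene, was at 213, 353 and 457 CPM in WT and 298, 74.7 and 299 CPM in KO. Each was lowest in KO replicate 2 and next lowest in WT replicate 1. The fatty acid binding protein gene Fabp2, higher toward the small intestine, was the reverse, at 76.5, 4.25 and 11.1 CPM in WT and 13.7, 259.6 and 3.31 CPM in KO. The antimicrobial lectin gene Reg3b was at 383, 7.86 and 17.5 CPM in WT and 23.9, 4628 and 17.05 CPM in KO. For these 2 genes the same libraries, KO replicate 2 and then WT replicate 1, were the highest. The related lectin gene Reg3g followed the same order at 172, 4.44 and 9.07 CPM in WT and 9.42, 1605 and 6.17 CPM in KO. Leaving out KO replicate 2 turned the log2 fold change of Reg3b from 3.52 to -2.73 and that of Fabp2 from 1.59 to -1.85. Proliferation also followed these libraries. The cell cycle gene Mki67 was at 221, 439.6 and 452 CPM in WT and 515, 177 and 473 CPM in KO, lowest in the same 2 libraries. Over the 16 distal colon genes tested, mean log2 CPM was 4.03, 5.02 and 5.29 in WT and 4.28, 3.45 and 5.29 in KO. Over the 12 proximal colon genes tested it was 3.66, 2.48 and 2.91 in WT and 3.59, 3.98 and 3.06 in KO. In both lists KO replicate 1 lay close to WT replicate 1, so the lists set WT replicate 1 apart less clearly than the genes above. Summed CPM of the distal list was highest in KO replicate 2, at 4786. The position along the colon is not given for any library, and its part in the results was not tested.

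WT replicate 2 stood apart in another way. The chloride and bicarbonate exchanger gene Slc26a3 of surface colonocytes was at 587, 41.1 and 413 CPM in WT and 518, 771 and 342 CPM in KO. The peroxisomal oxidase gene Hao2 was at 99.4, 3.86 and 67.3 CPM in WT and 67.4, 148 and 31.3 CPM in KO. Ido1, a tryptophan-degrading enzyme induced by interferon gamma, was at 396, 1701 and 195 CPM in WT and 127, 82.3 and 243 CPM in KO. This library therefore held the least of these surface genes and the most Ido1 of the 6. KO replicate 1 held 10.7 CPM of the liver gene Alb against at most 0.306 CPM elsewhere, and KO replicate 3 held 22.3 CPM of the fat-cell gene Cfd against at most 1.57 CPM. Leaving out KO replicate 2 changed the sign of 16.77% of all fold changes, the highest share among the 6 libraries, and leaving out KO replicate 1 changed the lowest, 8.8%. Of 139 genes described with values by library or fold changes, 68 had a log2 fold change that was over 1.5 times smaller or of the other sign without at least 1 library. This held for 26 of them without WT replicate 2, 17 without KO replicate 2, 15 without WT replicate 1, 14 without KO replicate 3, 9 without KO replicate 1 and 3 without WT replicate 3.

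The genes were then read by 67 lists. The mean log2 CPM of the list did not overlap between KO and WT libraries for 4, namely ribosomal protein and immediate early genes (lower) and pericyte and red blood cell genes (higher). The other 63 overlapped. With the trend of fold change with transcript length removed, as described next, the immediate early list overlapped too, and the enteroendocrine and FGF pathway lists were separate, both higher. The median of 34 lists kept its sign whichever library was left out, and the median of the other 33 changed sign. Of 12 immune lists, 11 were lowest in KO replicate 2 and 6 were highest in WT replicate 1.

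**Figure D3:**
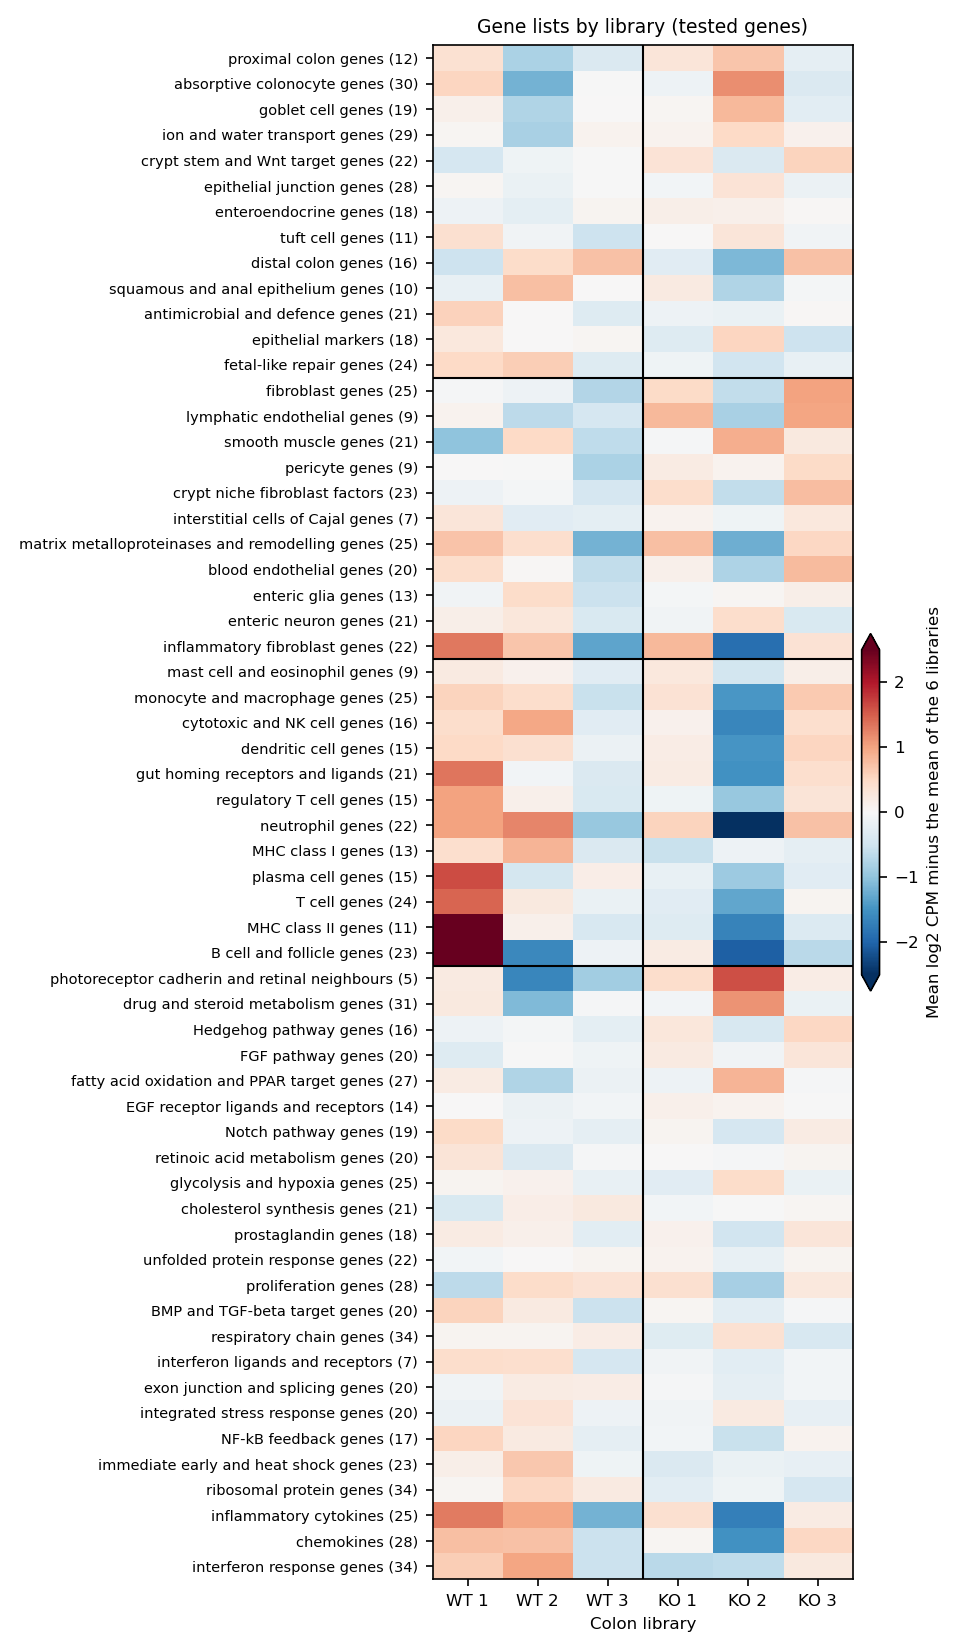
Mean log2 CPM of the tested members of each gene list in each colon library, as a difference from the mean of the 6 libraries, with the number of members in brackets. Colours run from blue (low) to red (high), and the vertical line parts WT from KO. B cell and MHC class II genes are highest in WT replicate 1, most leukocyte lists are lowest in KO replicate 2, and ribosomal protein genes are lower in all 3 KO libraries.

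The fold changes followed the length of the transcript. The 15308 protein-coding genes tested were divided into 10 equal bins by their longest annotated transcript. In the shortest bin, up to 1388 bases, the median log2 fold change was -0.33, 77.31% of genes lay below 0, and 19.1% were lower in KO without overlap against 1.11% higher. In the longest bin, from 6785 bases, the median was 0.30, 19.33% lay below 0, and 18.22% were higher without overlap against 1.24% lower. The medians increased in every step between them. Spearman's correlation across genes of length and log2 fold change was 0.394, as a description, since the genes share the same libraries. Across the bins KO replicate 3 went from -0.36 to 0.30 relative to the mean of the 6 libraries, and KO replicate 1 from -0.22 to 0.19. WT replicate 2 went the other way, from 0.30 to -0.25, and WT replicate 3 from 0.19 to -0.14. WT replicate 1 (0.09 to -0.04) and KO replicate 2 (0.04 to -0.03) varied least. The ends of this range were also the ends in depth, with 140.7 M counts in KO replicate 3 and 45.4 M in WT replicate 2, and the part of depth in the trend was not tested. When each library's trend with length was removed, as an alternative chosen after seeing the data, 13.2% of genes did not overlap, 5.08% lower and 8.14% higher, and the median of all genes was 0.05. Removing the trend changed the sign of the median for 7 of the 67 lists and the number of members without overlap for 30.

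**Figure D4:**
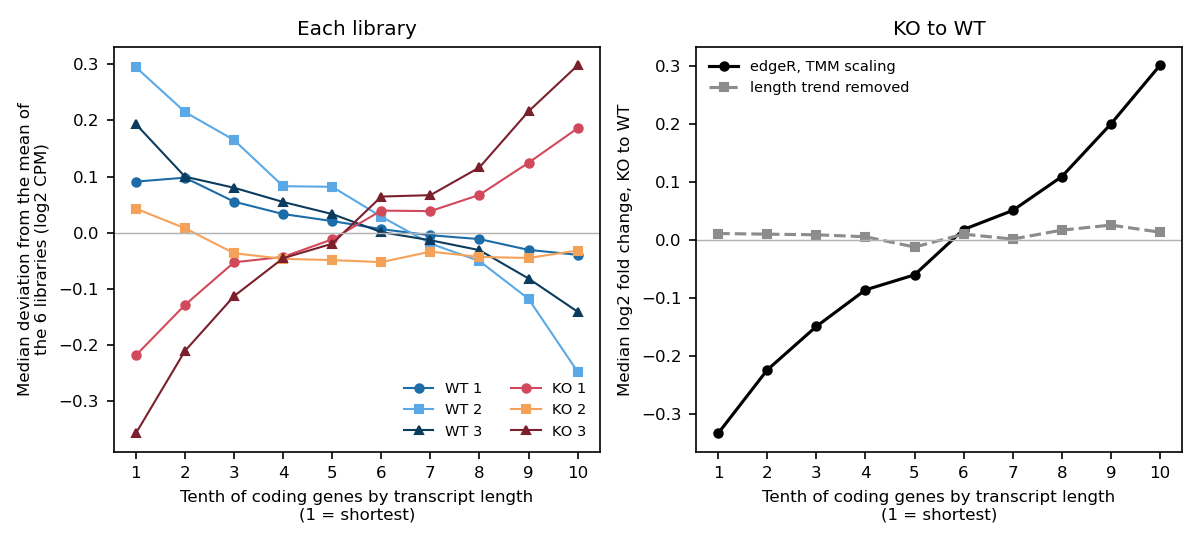
Protein-coding genes in 10 bins by transcript length, from the shortest (1) to the longest (10). The left panel shows the median deviation of each library from the mean of the 6 in log2 CPM, and the right panel the median log2 fold change of KO to WT, which goes from -0.33 to 0.30 with TMM scaling and lies between -0.01 and 0.03 with the length trend removed.

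Ribosomal protein genes, which build the ribosome and have short transcripts, leaned 1 way. All 34 lay below 0, with a median of -0.57, and 28 of the 34 were lower in KO without overlap, against 7.14% of all genes. Rpl27 of the large subunit was at 243, 429.8 and 313 CPM in WT and 182, 203 and 149.9 CPM in KO, a log2 fold change of -0.88 (SE 0.25). Rplp0, of the ribosomal stalk, was at 2396, 2789 and 2556 CPM in WT and 2092, 2360.4 and 1954 CPM in KO (log2 fold change -0.27, SE 0.19). Every KO library was below every WT library for both. Reads of these genes are uncertain where near-identical pseudogenes share them. The median length of these transcripts was 1139 bases, in the shortest bin of coding genes. With the length trend removed the median was -0.25, 30 of 34 lay below 0 and 18 of 34 were lower without overlap. Rpl27 was then at -0.46 and Rplp0 at 0.02. Nuclear genes of the respiratory chain, which are nearly as short, had a median of -0.18 and no member without overlap, and with the trend removed their median was 0.10 and 2 members were higher without overlap.

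In the epithelium, general markers had a median near 0 and the lists of absorptive, goblet and crypt base cells had medians above it. Of 18 epithelial markers, 7 lay above 0 and the median was -0.15, or 10 and 0.03 with the length trend removed. The adhesion gene Epcam was at 2023, 2106 and 1956 CPM in WT and 1296, 2386 and 1329 CPM in KO. The keratin gene Krt8 was at 8307, 7810.2 and 7758 CPM in WT and 5578, 10802 and 5223 CPM in KO. Both were highest in KO replicate 2 and lower in KO replicates 1 and 3 than in any WT library. The tight junction gene Cldn4 was the 1 of 18 markers lower without overlap, against 7.14% of all genes. It was at 146, 238 and 68.4 CPM in WT and 62.5, 61.4 and 40.5 CPM in KO (log2 fold change -1.46, SE 0.43), and it overlapped with the length trend removed.

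Goblet cells make the mucus layer. Of 19 tested goblet cell genes, 17 lay above 0 with a median of 0.42, and with the length trend removed all 19 did with a median of 0.55. Of the 19, 3 were higher in KO without overlap, against 7.36% of all genes. Creb3l4, a membrane-bound transcription factor of secretory cells, was at 6.94, 5.94 and 8.28 CPM in WT and 10.4, 14.3 and 12.1 CPM in KO (log2 fold change 0.80, SE 0.26). Sytl2, which takes part in granule release, was at 61.8, 31.7 and 48.1 CPM in WT and 77.6, 90.3 and 66.1 CPM in KO (log2 fold change 0.72, SE 0.27). Neither group reached into the other for these 2 genes. The mucin-folding gene Agr2 was at 487, 617 and 743 CPM in WT and 752, 880.0 and 788 CPM in KO, and its log2 fold change of 0.39 (SE 0.21) became 0.78 with the length trend removed. The gel-forming mucin gene Muc2 overlapped, at 2908, 1779 and 2056 CPM in WT and 2973, 5917 and 2004 CPM in KO, with KO replicate 2 far above the rest. The median of the list ran from 0.07 to 0.56 without 1 library, lowest without KO replicate 2. Ern2, the stress sensor particular to mucus-secreting epithelium, was higher without overlap at 25.2, 21.99 and 38.1 CPM in WT and 52.2, 41.4 and 56.6 CPM in KO (log2 fold change 0.82, SE 0.25).

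Absorptive colonocyte genes lay above 0 for 26 of 30 members, but 0 members were without overlap and the median changed from 0.49 to -0.08 without KO replicate 2. The carbonic anhydrase gene Car2 was at 322, 117 and 254 CPM in WT and 282, 768 and 229.7 CPM in KO. The adhesion molecule gene Ceacam1 was at 2822, 1486 and 1597 CPM in WT and 2834, 6247 and 1949 CPM in KO. KO replicate 2 was the highest library and WT replicate 2 the lowest for both. Among 29 tested ion and water transport genes, 23 lay above 0 (median 0.41). The chloride cotransporter family member Slc12a8 was at 12.96, 12.6 and 18.6 CPM in WT and 29.95, 37.4 and 34.4 CPM in KO (log2 fold change 1.20, SE 0.22). Kcnq1, a potassium channel that drives chloride secretion in crypts, was at 14.96, 21.6 and 28.2 CPM in WT and 34.9, 43.9 and 51.8 CPM in KO (log2 fold change 1.01, SE 0.27). The large-conductance potassium channel gene Kcnma1 was at 6.73, 8.05 and 3.92 CPM in WT and 11.6, 10.5 and 11.6 CPM in KO, and its 0.85 became 0.46 with the length trend removed. These were the 3 of 29 members higher in KO without overlap, against 7.36% of all genes, and Slc12a8 ran from 1.11 to 1.43 without 1 library. Slc26a6 was the 1 member lower without overlap (log2 fold change -0.49, SE 0.28), against 7.14% of all genes.

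Crypt base genes were also mostly above 0, in 16 of 22 members (median 0.30). Their transcripts had a median length of 4112 bases, and with the length trend removed 13 of 22 lay above 0 (median 0.22). Smoc2, a matrix protein of crypt base cells, was at 8.53, 11.3 and 16.7 CPM in WT and 22.1, 22.1 and 33.98 CPM in KO (log2 fold change 1.10, SE 0.32). The receptor gene Ephb2, which holds cells low in the crypt, was at 67.00, 98.7 and 96.3 CPM in WT and 129.9, 98.8 and 119 CPM in KO, and its long transcript gave 0.41 with TMM scaling but 0.03 with the length trend removed. Lgr5, the stem cell marker, was at 0.192, 0.229 and 0.988 CPM in WT and 1.09, 0.928 and 3.19 CPM in KO and overlapped. The median without 1 library ran from 0.04 to 0.38, lowest without WT replicate 1.

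Genes of the fetal-like repair program, which regenerating epithelium switches on after injury, lay mostly below 0. Of 24 tested members 18 did, with a median of -0.52, and 5 were lower in KO without overlap, against 7.14% of all genes. Ly6a, the marker also called Sca-1, was at 2670.0, 4259 and 2836 CPM in WT and 1702, 1855 and 1726 CPM in KO (log2 fold change -0.89, SE 0.24). Plaur, the urokinase receptor gene, was at 84.9, 138 and 59.1 CPM in WT and 44.6, 39.3 and 31.6 CPM in KO (log2 fold change -1.29, SE 0.32). The related Ly6d was at 110.1, 134 and 32.5 CPM in WT and 24.3, 31.9 and 12.4 CPM in KO (log2 fold change -2.01, SE 0.56). All KO libraries lay below all WT libraries, and reads of the Ly6 family are uncertain where copies are near-identical. The other 2 were Hbegf, a ligand of the EGF receptor, at -0.77 (SE 0.22), and the annexin gene Anxa3 at -0.30 (SE 0.17). WT replicate 2 was the highest library for the first 3, and without it the list median was -0.19. With the length trend removed the median was -0.30, 3 members were lower without overlap, and Ly6a and Anxa3 were at -0.49 and -0.04. The cornified envelope gene Sprr2a3 is no member of this list but of the distal colon list. It is one of a family of near-identical genes whose reads are uncertain. Its level was 1931, 3146 and 1853 CPM in WT and 1199, 1189 and 1028 CPM in KO (log2 fold change -1.02, SE 0.26).

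Enteroendocrine and tuft cell genes showed little. Of 18 enteroendocrine genes 10 lay above 0, and the hormone gene Pyy was at 69.9, 179 and 137 CPM in WT and 88.4, 71.1 and 79.6 CPM in KO, with overlap. The prohormone convertase gene Pcsk1 (log2 fold change 0.50, SE 0.30) and the transcription factor gene Neurod1 (log2 fold change 0.56, SE 0.33) were higher without overlap, and Chga, a granule protein gene, was lower (log2 fold change -0.27, SE 0.21, or -0.07 with the length trend removed). These were 2 higher and 1 lower of the 18, against 7.36% and 7.14% of all genes. With the length trend removed 13 of the 18 lay above 0 (median 0.29) and 3 were higher without overlap, against 8.14% of all genes. Of 11 tested tuft cell genes 5 lay above 0. Junction genes had a median of 0.13.

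In the stroma, fibroblast genes were highest in 2 of the 3 KO libraries. Of 25 members 23 lay above 0, with a median of 0.76 and a range of 0.46 to 1.03 without 1 library. Of the 25, 2 were higher without overlap, a share near the 7.36% of all genes. Fbln1, a matrix glycoprotein, was at 28.2, 19.8 and 23.8 CPM in WT and 46.3, 35.5 and 46.5 CPM in KO (log2 fold change 0.84, SE 0.21). Postn, secreted by activated fibroblasts, was at 22.2, 35.6 and 33.8 CPM in WT and 62.6, 36.7 and 97.9 CPM in KO (log2 fold change 1.11, SE 0.37). The fibrillar collagen gene Col3a1 was at 139.8, 116 and 109 CPM in WT and 341, 82.9 and 497 CPM in KO. Fibronectin, Fn1, was at 51.4, 117 and 61.4 CPM in WT and 195, 104 and 226 CPM in KO. For both, KO replicates 1 and 3 lay above all WT libraries and KO replicate 2 lay within their range or below it. Summed over the list, fibroblast genes took 1083, 916 and 645 CPM in WT and 1636, 712 and 2178 CPM in KO. Lymphatic endothelial genes were also highest in KO replicate 3 and lowest in KO replicate 2, with 8 of 9 above 0 and a median of 0.73. Their master regulator Prox1 was higher in all KO libraries, at 0.551, 0.480 and 0.306 CPM in WT and 0.972, 1.07 and 1.41 CPM in KO (log2 fold change 1.37, SE 0.40). Blood endothelial genes had a median of 0.05.

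Fibroblasts around the crypt base supply Wnt ligands and BMP antagonists to the stem cells. Of the 23 members of this list, 3 were higher in KO without overlap, against 7.36% of all genes. Values of 2 of them follow. Grem1, a BMP antagonist, was at 67.3, 55.1 and 14.5 CPM in WT and 100.1, 67.4 and 84.1 CPM in KO (log2 fold change 0.88, SE 0.50). The Wnt ligand gene Wnt2b was at 0.611, 0.366 and 0.765 CPM in WT and 1.35, 0.864 and 1.86 CPM in KO (log2 fold change 1.22, SE 0.46). The KO libraries lay above the WT libraries in both cases, by the narrower margin for Grem1. KO replicate 3 was the highest library for Wnt2b, and without it the list median of 0.35 was 0.09. Inflammatory fibroblast genes lay the other way in 16 of 22 members (median -0.57), but without WT replicate 1 their median was 0.44. The matrix gene Tnc of that list was higher in every KO library at 50.5, 49.3 and 21.8 CPM in WT and 107, 68.4 and 85.8 CPM in KO (log2 fold change 1.11, SE 0.35).

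Smooth muscle genes lay above 0 in all 21 members, with a median of 0.60, yet none was without overlap (1 with the length trend removed). Gamma smooth muscle actin, Actg2, was at 14.97, 60.8 and 28.7 CPM in WT and 60.7, 281 and 67.7 CPM in KO, with KO replicate 2 far above the rest and KO replicates 1 and 3 close to WT replicate 2. The list took 1219, 2909.7 and 1330.2 CPM in WT and 1961, 4093 and 2319 CPM in KO, and its median was 0.33 without KO replicate 2 and 1.06 without WT replicate 2. Pericyte genes, from contractile cells that wrap capillaries, lay above 0 in 8 of 9 members with a median of 0.53. Their library means did not overlap, at 2.87, 2.85 and 2.08 log2 CPM in WT and 3.08, 2.96 and 3.35 in KO, although no single member was without overlap. Enteric neuron genes (median -0.05, 13 of 21 below 0) and glia genes (median -0.04) had medians near 0. Kit, the receptor of pacemaker cells and mast cells, was higher in every KO library, at 11.3, 4.12 and 5.90 CPM in WT and 14.7, 18.5 and 15.2 CPM in KO (log2 fold change 1.18, SE 0.39).

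**Figure D5:**
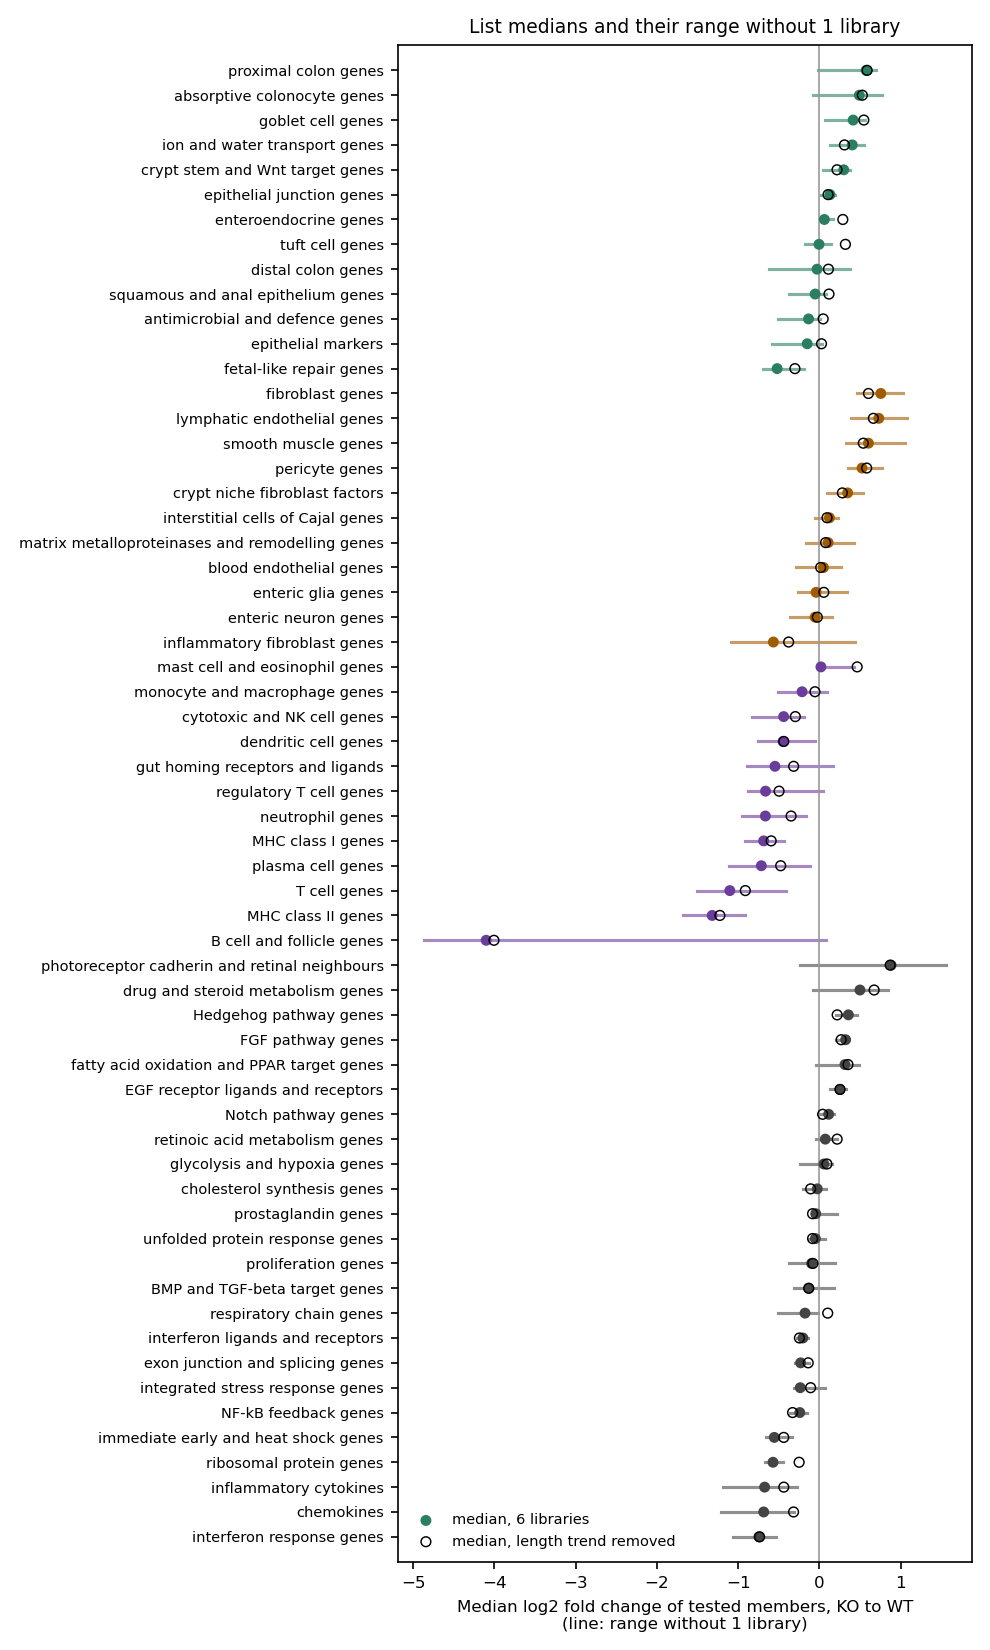
Median log2 fold change of KO to WT over the tested members of each list (filled points), its range when 1 library was left out (lines) and its value with the length trend removed (open circles), coloured by class (green epithelium, brown stroma, purple immune, grey pathway). Fibroblast genes keep a median of 0.46 or more, B cell genes run from -4.86 to 0.08, and ribosomal protein genes go from -0.57 to -0.25 when the length trend is removed.

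Among signalling pathways, targets of bone morphogenetic proteins (BMP), which drive epithelial differentiation toward the surface, had a mixed list. Of 20 members 13 lay below 0 and 3 were lower without overlap, against 7.14% of all genes. Id1, a direct BMP target that restrains differentiation factors, was at 426, 721 and 534 CPM in WT and 217, 284 and 229 CPM in KO (log2 fold change -1.20, SE 0.24). Its relative Id3 was at 131, 165 and 103 CPM in WT and 50.4, 82.4 and 46.5 CPM in KO (log2 fold change -1.15, SE 0.28). Pmepa1, induced by TGF-beta, was at 86.5, 221 and 85.6 CPM in WT and 68.3, 62.9 and 54.3 CPM in KO (log2 fold change -1.08, SE 0.39), with WT replicate 2 above the other WT libraries. The BMP antagonist gene Grem1 lay in the opposite direction, as given above, and the list median was -0.13.

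The fibroblast growth factor (FGF) list had 5 of 20 tested members higher in KO without overlap, against 7.36% of all genes. Besides Fgfbp3 these were 2 receptors and 2 downstream genes. The receptor gene Fgfr2 was at 13.7, 15.96 and 11.99 CPM in WT and 22.1, 19.7 and 28.7 CPM in KO (log2 fold change 0.76, SE 0.23). Fgfr3 was at 3.35, 3.31 and 7.61 CPM in WT and 8.35, 8.77 and 11.1 CPM in KO (log2 fold change 0.98, SE 0.40). The downstream genes were the transcription factor gene Etv5 (log2 fold change 0.69, SE 0.30) and the feedback inhibitor Spred1 (log2 fold change 0.42, SE 0.22, or 0.23 with the length trend removed). Dusp6, a phosphatase induced by FGF signals, was lower without overlap at 116, 184 and 102 CPM in WT and 87.7, 71.1 and 90.7 CPM in KO (log2 fold change -0.69, SE 0.25). WT replicate 2 was its highest library, and without it the log2 fold change was -0.39. Hedgehog genes, by which the epithelium signals to the stroma, lay above 0 in 12 of 16 members (median 0.36). The coreceptor gene Boc was the 1 of the 16 higher without overlap (log2 fold change 0.91, SE 0.35), but not with the length trend removed. Among EGF receptor genes the ligand Hbegf was lower, as given above, and the ligands Egf (log2 fold change 0.55, SE 0.37) and Btc (log2 fold change 0.24, SE 0.25) were higher without overlap. These were 2 higher and 1 lower of 14 tested members. In the Notch list the ligand gene Jag1 (log2 fold change 0.30, SE 0.21, or 0.15 with the length trend removed) was higher and the glycosyltransferase gene Rfng (log2 fold change -0.52, SE 0.18) lower without overlap. These were 1 higher and 1 lower of 19 tested members. Of all genes, 7.36% were higher and 7.14% lower without overlap. The counts of the Hedgehog and Notch lists lie near these shares, and the count of higher members in the EGF list rests on 2 genes.

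Interferon response genes lay below 0 in 33 of 34 members, with a median of -0.74, and the length trend left this median as it was. Of the 34, 4 were lower in KO without overlap, against 7.14% of all genes. They are switched on through the interferon-stimulated response element in their promoters. In 300-base promoter windows of RefSeq on GRCm38.p6 (250 bases before to 50 after the start), 26 of the 34 genes had an entry, and 20 of these 26 (76.92%) held the element's core GAAANNGAA or its reverse complement TTCNNTTTC. Of all 27025 genes with a window, 9.76% held it, and of all 32851 windows of the same length, 8.56%. A match is a description of letters and not of binding. Of the 4 members without overlap between groups, no window with a match was found for Oasl1. The stretches below are those of the other 3 and of Ifit3, whose groups overlapped and whose window held 3 separate matches. Every match is in capitals, and matches that overlap are shown as 1 run, 5′ to 3′ on the strand of the gene.
Bst2 (chr8:71537576-71537614, minus strand): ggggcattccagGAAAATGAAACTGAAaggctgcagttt
Isg15 (chr4:156200864-156200908, minus strand): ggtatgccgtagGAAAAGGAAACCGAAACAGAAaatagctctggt
Oas1a (chr5:120907519-120907557, minus strand): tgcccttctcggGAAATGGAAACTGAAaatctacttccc
Ifit3 (chr19:34583362-34583447, plus strand): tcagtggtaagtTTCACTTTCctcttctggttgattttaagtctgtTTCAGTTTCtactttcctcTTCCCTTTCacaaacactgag
In Bst2, Isg15 and Oas1a the matches overlap in tandem in the direction of the gene, and in Ifit3 they read as the reverse complement. Ifit3b held the same 86 bases, and reads of these 2 genes are uncertain.

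Isg15, a ubiquitin-like modifier, was at 99.6, 125 and 60.01 CPM in WT and 18.9, 35.4 and 37.5 CPM in KO (log2 fold change -1.63, SE 0.36). Bst2, which tethers viruses to the cell surface, was at 105, 181 and 90.5 CPM in WT and 48.4, 37.4 and 45.7 CPM in KO (log2 fold change -1.52, SE 0.29). Oasl1, of the family that senses double-stranded RNA, was at 129, 187 and 85.9 CPM in WT and 33.4, 54.7 and 58.1 CPM in KO (log2 fold change -1.46, SE 0.34). In each of the 3, WT replicate 2 was the highest library. Its relative Oas1a was at 119, 134 and 109 CPM in WT and 65.8, 92.7 and 77.1 CPM in KO (log2 fold change -0.62, SE 0.18). The KO libraries were all below the WT libraries for these 4 genes, and the fold changes without 1 library were -1.85 to -1.36 for Isg15 and -1.69 to -1.16 for Bst2. Bst2 and Isg15 have short transcripts, and with the length trend removed they were at -1.06 and -1.21. The other 30 members overlapped. Ifit3 was at 30.8, 59.03 and 17.4 CPM in WT and 10.2, 11.2 and 21.9 CPM in KO. Gbp2, a target of interferon gamma, was at 416, 1381 and 73.3 CPM in WT and 222, 76.01 and 459 CPM in KO, highest in WT replicate 2 with KO replicate 3 next. Interferon gamma itself, Ifng, was at 2.89, 13.97 and 0.250 CPM in WT and 1.75, 0.192 and 1.45 CPM in KO, with WT replicate 2 again the highest. As means of the list the libraries overlapped, with WT replicate 3 at 5.04 log2 CPM below KO replicate 3 at 5.82.

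Genes of antigen presentation through MHC class I lay below 0 in 12 of 13 members (median -0.69). The immunoproteasome gene Psmb8 was the 1 of 13 lower without overlap, a share near the 7.14% of all genes. It was at 198, 435 and 135 CPM in WT and 99.4, 116 and 117 CPM in KO (log2 fold change -1.21, SE 0.41). Its log2 fold change was -0.59 without WT replicate 2, and with the length trend removed no member was without overlap. MHC class II genes lay below 0 in all 11 members with 0 without overlap. The invariant chain gene Cd74 was at 1411, 1782 and 577 CPM in WT and 477, 429.7 and 678 CPM in KO, with WT replicate 3 within the KO range. NF-kB feedback genes, which the inflammatory factor NF-kB induces in its own control, lay below 0 in 14 of 17 members by small amounts (median -0.24). Of the 17, 4 were lower without overlap, against 7.14% of all genes. Nfkbia, the inhibitor IkB-alpha, was at 222, 216 and 193 CPM in WT and 135, 137 and 159.7 CPM in KO (log2 fold change -0.55, SE 0.16, or -0.29 with the length trend removed). The coactivator gene Bcl3 was at 161, 237 and 210.4 CPM in WT and 115, 114 and 122 CPM in KO (log2 fold change -0.80, SE 0.19). The subunit gene Rela (log2 fold change -0.43, SE 0.17) and the inhibitor gene Nfkbib (log2 fold change -0.51, SE 0.19, or -0.33 with the length trend removed) were the other 2. Of 25 cytokine genes 22 lay below 0 and 2 were lower without overlap, a share near the 7.14% of all genes. Their median was -0.67, and -0.27 without KO replicate 2. With the length trend removed 18 lay below 0 and 0 were without overlap. Tnf, the tumor necrosis factor gene, was at 32.4, 55.5 and 20.7 CPM in WT and 17.2, 17.03 and 19.2 CPM in KO (log2 fold change -1.02, SE 0.35). Csf2, which encodes GM-CSF, was barely detected, at 0.503, 0.274 and 0.195 CPM in WT and 0.0314, 0.0960 and 0.123 CPM in KO (log2 fold change -1.93, SE 0.67). These levels rest on 42, 12 and 14 counts in WT and 3, 6 and 19 in KO. The chemokine list had a median of -0.68, or -0.32 with the length trend removed. In it Cxcl1 (log2 fold change -1.18, SE 0.48) and Cxcl2 (log2 fold change -1.37, SE 0.62) were lower and the eosinophil attractant Ccl11 higher, at 1.39, 1.46 and 0.445 CPM in WT and 4.12, 1.47 and 5.45 CPM in KO (log2 fold change 1.75, SE 0.63). The last gene was highest in KO replicates 1 and 3, as were the fibroblast genes.

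T cell genes bear on the known role of the ligand. All 24 lay below 0 with a median of -1.10, and 7 were lower in KO without overlap, against 7.14% of all genes. The T cell receptor beta constant gene Trbc2 was at 5.04, 3.11 and 1.96 CPM in WT and 1.53, 0.768 and 1.48 CPM in KO (log2 fold change -1.42, SE 0.47). Cd3d of the receptor complex was at 4.13, 1.65 and 1.22 CPM in WT and 0.847, 0.288 and 1.09 CPM in KO (log2 fold change -1.64, SE 0.65). The remaining 5 were, as log2 fold changes, Cd2, Lat, Cd3g, Lck and Trac, at -3.03, -1.54, -0.78, -0.91 and -1.32. WT replicate 1, the library rich in B cell RNA, was the highest for all 7. Cd2 was at 12.5, 1.14 and 1.00 CPM in WT and 0.920, 0.256 and 0.596 CPM in KO. Without WT replicate 1 the log2 fold change was -0.94 for Cd3d, -0.85 for Cd2, -0.73 for Lat, -0.68 for Trac, -0.29 for Cd3g and -0.24 for Lck. The T cell list took 111, 54.6 and 37.7 CPM in WT and 38.1, 20.6 and 45.9 CPM in KO, where WT replicate 3 lay below 2 of the KO libraries. Without WT replicate 1 the list median was -0.41, and with the length trend removed 3 of 24 members were lower without overlap. The B cell and follicle list took 1801, 491 and 515 CPM in WT and 591, 212 and 538 CPM in KO, and its part in the T cell values was not tested. Gpr15, the receptor, was at 0.479, 0.183 and 0.167 CPM in WT and 0.0732, 0 and 0.233 CPM in KO, with overlap.

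Regulatory T cell genes lay below 0 in 11 of 15 tested members (median -0.66, 0.04 without WT replicate 1). The costimulatory receptor gene Tnfrsf4 was the 1 of 15 lower without overlap, a share near the 7.14% of all genes. It was at 3.91, 2.99 and 1.66 CPM in WT and 1.18, 1.39 and 1.33 CPM in KO (log2 fold change -1.13, SE 0.39), and with the length trend removed it overlapped. Gut homing receptors and their ligands had a median of -0.55, which was 0.17 without WT replicate 1, and no member was without overlap. The chemokine receptor gene Cxcr4 was at 41.4, 4.80 and 3.06 CPM in WT and 3.81, 1.15 and 3.27 CPM in KO. Itgb7, a gut homing integrin chain, was at 33.8, 8.76 and 5.13 CPM in WT and 6.57, 1.57 and 8.34 CPM in KO. Both were highest in WT replicate 1 and lowest in KO replicate 2. The epithelial chemokine gene Ccl28 was at 109, 56.2 and 142 CPM in WT and 123, 142 and 161 CPM in KO. Among plasma cell genes Igha, the IgA heavy chain, was at 605, 179.9 and 299 CPM in WT and 147, 54.3 and 127 CPM in KO (log2 fold change -1.73, SE 0.53). The light chain gene Igkc was at 518, 87.3 and 143 CPM in WT and 70.9, 31.99 and 64.01 CPM in KO (log2 fold change -2.17, SE 0.68). The joining chain gene Jchain gave -1.61 (SE 0.61). These 3 and Creld2 were the 4 of 15 tested members lower without overlap, against 7.14% of all genes. With the length trend removed 2 members were lower and 2 higher without overlap. Levels of Igha and Igkc were highest in WT replicate 1. The median of the plasma cell list was -0.71, and -0.11 without WT replicate 1. In fits without 1 library Igha ran from -2.05 to -1.13 and Igkc from -2.57 to -1.05. Neutrophil genes were below 0 in 19 of 22 members, of which 1 was lower without overlap, against 7.14% of all genes. This was Ly6g, a neutrophil surface marker, at 423, 560.4 and 566 CPM in WT and 328, 242 and 239.6 CPM in KO (log2 fold change -0.94, SE 0.22, or -0.54 with the length trend removed). Its reads are uncertain where Ly6 copies are near-identical. Ly6g did not follow the mean of its list, which was 2.44, 2.67 and 0.498 log2 CPM in WT and 2.01, -1.13 and 2.17 in KO. Summed, the list took 666 CPM in WT replicate 3 and 264 CPM in KO replicate 2, most of it Ly6g. Monocyte and macrophage genes had a median of -0.21 and 0 members without overlap.

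In metabolism, genes of drug and steroid handling lay above 0 in 28 of 31 tested members (median 0.50), though without KO replicate 2 the median was -0.08. The glucuronosyltransferase gene Ugt1a7c, which shares exons with its neighbours so that its reads are uncertain, was at 30.98, 9.60 and 27.9 CPM in WT and 45.5, 51.2 and 40.5 CPM in KO (log2 fold change 1.00, SE 0.41). The drug efflux pump gene Abcb1a (log2 fold change 1.17, SE 0.66) and the aryl hydrocarbon receptor gene Ahr (log2 fold change 0.50, SE 0.25) were also higher without overlap, and the glutathione transferase gene Gstp1, which has near-identical copies, was lower (log2 fold change -0.37, SE 0.18, or 0.03 with the length trend removed). Of the 31 members, 3 were thus higher and 1 lower without overlap, against 7.36% and 7.14% of all genes. Fatty acid oxidation genes followed the same library, with 24 of 27 above 0 and a median that went from 0.32 to -0.03 without KO replicate 2. Of the 27, 4 were higher without overlap, against 7.36% of all genes. The fatty acid transporter gene Slc27a2 was at 0.335, 0.160 and 0.612 CPM in WT and 0.983, 5.34 and 2.29 CPM in KO (log2 fold change 2.93, SE 0.76). The mitochondrial coactivator gene Ppargc1a was at 11.5, 7.52 and 10.5 CPM in WT and 15.4, 15.1 and 24.9 CPM in KO (log2 fold change 0.91, SE 0.29). The other 2 were the oxidation genes Etfdh (log2 fold change 0.37, SE 0.21) and Ehhadh (log2 fold change 0.43, SE 0.32). Lipoprotein lipase, Lpl, was higher in every KO library at 6.21, 5.44 and 4.78 CPM in WT and 10.03, 10.1 and 13.97 CPM in KO (log2 fold change 1.05, SE 0.26), while the fat-cell hormone gene Adipoq was at 0.0240, 0 and 0.195 CPM in WT and 0.126, 0.0640 and 0.855 CPM in KO.

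Of 25 glycolysis and hypoxia genes 14 lay above 0, and 2 were higher and 2 lower without overlap (1 and 1 with the length trend removed), near the shares of all genes. The peptide hormone gene Adm was at 23.8, 29.6 and 20.2 CPM in WT and 12.7, 12.9 and 12.5 CPM in KO (log2 fold change -0.95, SE 0.21). Hif3a, which restrains hypoxia factors and is no member of the list, was higher in every KO library and was at 8.11, 11.1 and 13.1 CPM in WT and 19.7, 27.8 and 51.2 CPM in KO (log2 fold change 1.61, SE 0.38). Immediate early genes lay below 0 in 18 of 23 members, with means of 5.43, 5.96 and 5.18 log2 CPM in WT and 4.93, 5.13 and 5.08 in KO. With the length trend removed these means overlapped, as WT replicate 3 was at 5.12 and KO replicate 3 at 5.15. Junb, a subunit of AP-1, was at 208, 399 and 204 CPM in WT and 143, 156 and 153 CPM in KO (log2 fold change -0.84, SE 0.29). Atf3, a stress-induced transcription factor, was at 57.5, 157 and 82.7 CPM in WT and 47.9, 41.99 and 56.8 CPM in KO (log2 fold change -1.02, SE 0.36). WT replicate 2 was the highest library for both. In the unfolded protein response the secreted factor gene Manf was at 203, 306 and 225 CPM in WT and 147, 152 and 139.5 CPM in KO (log2 fold change -0.74, SE 0.20), and the sensor kinase gene Eif2ak3 was higher without overlap (log2 fold change 0.40, SE 0.16). The exon junction complex gene Rbm8a was at 107, 165 and 131 CPM in WT and 76.03, 68.2 and 61.9 CPM in KO (log2 fold change -0.97, SE 0.20), and its partner Magoh gave -0.65, which was -0.18 with the length trend removed.

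Further genes were among the 10 of lowest p in a direction without overlap. Tspan12, a tetraspanin of Norrin signalling, was at 2.36, 3.47 and 3.96 CPM in WT and 6.12, 10.8 and 10.9 CPM in KO (log2 fold change 1.51, SE 0.35). The calcium-gated potassium channel gene Kcnn3 was at 1.46, 1.65 and 1.92 CPM in WT and 4.74, 3.62 and 4.55 CPM in KO (log2 fold change 1.36, SE 0.30). Zfp704, a zinc finger gene, was at 15.96, 14.5 and 18.1 CPM in WT and 32.5, 28.8 and 33.7 CPM in KO (log2 fold change 0.97, SE 0.18). All 3 were higher in every KO library, and Zfp704 was at 0.55 with the length trend removed. Arhgef28 (log2 fold change 0.84, SE 0.19) and Rap1gap (log2 fold change 0.84, SE 0.18), both regulators of small GTPases, were likewise higher. On the lower side the nucleoside diphosphate kinase gene Nme1 was at 80.8, 143 and 105 CPM in WT and 60.3, 45.8 and 45.01 CPM in KO (log2 fold change -1.12, SE 0.25). The ARF-like gene Arl5c was at 12.9, 14.2 and 7.84 CPM in WT and 4.98, 3.90 and 4.13 CPM in KO (log2 fold change -1.42, SE 0.31). Gmfg, an actin regulator of leukocytes, was at 49.1, 43.3 and 38.1 CPM in WT and 25.2, 27.03 and 19.4 CPM in KO (log2 fold change -0.87, SE 0.20), so that no KO library of these 3 genes reached the WT range.

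Other tissues and blood left traces in single libraries. The red blood cell list was highest in KO replicate 1, and its median of 1.40 was 0.20 without that library. Beta globin, Hbb-bs, whose reads may be shared with the other beta chain gene, was at 4.05, 5.44 and 2.31 CPM in WT and 23.3, 2.91 and 5.24 CPM in KO. The heme synthesis gene Alas2 was the 1 of 8 tested members higher without overlap, against 7.36% of all genes. It was at 0.204, 0.0229 and 0.139 CPM in WT and 1.38, 0.208 and 0.447 CPM in KO. As a mean log2 CPM, mesothelial genes were highest in KO replicate 3, which held 1.77 CPM of Muc16 and 2.44 CPM of Lrrn4, against at most 0.230 and 0.544 CPM elsewhere. Of 10 tested mesothelial genes 7 lay above 0 and the list took 5369.7, 4984 and 5232 CPM in WT and 3482, 6902 and 3375 CPM in KO. This sum was lowest in KO replicate 3 and consists mostly of Krt19, which epithelium also expresses and which had a mean of 5152 CPM in WT and 4511 CPM in KO. KO replicate 3 also held the highest summed level of fibroblast genes, and the part of mesothelium in the stromal values was not tested.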

How the data were processed

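Bulk RNA libraries of 12 samples were made with the Illumina TruSeq Stranded mRNA kit, per the labels, and 6 of them, from full colon, are compared here. The authors deposited raw counts per gene for every library in 1 table. Reads were aligned with STAR to GRCm38 (mm10), per the submitters' processing notes. The counting tool, its strand setting, the annotation and the read layout were not given in the sources used here, so reads of overlapping or near-identical genes are uncertain. Of counts from 1 to 9, 66.2% to 74.8% were even in the colon libraries, so mates of a pair may have been counted separately, and halved counts were tried. Total counts were 45.4 to 140.7 M per colon library, and no mitochondrial gene had counts. Of 54109 gene IDs, 54042 matched a symbol.

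Counts as deposited were tested with edgeR 4.0.16 in R 4.3.3 (quasi-likelihood, TMM, filterByExpr with a minimum count of 10, Benjamini-Hochberg threshold 0.05) over the 19303 genes that passed the filter. CPM and log2 CPM were computed from the deposited counts, the latter with a prior count of 2. Alternatives were DESeq2 1.42.0, limma 3.58.1 with voom, other filters, scalings and libraries and, chosen after seeing the data, removal of each library's trend with transcript length (lowess with a span of 0.3 on protein-coding genes). On simulated counts with 100 genes changed 4-fold and 100 changed 2-fold, edgeR recovered 54 and 4 with 1 false call, and DESeq2 90 and 24 with 87 false calls, over 18797 genes. These counts were drawn independently for each gene and library with edgeR's own dispersions. They lacked shifts that many genes share within a library, such as the trend with transcript length. They therefore cannot tell which DESeq2 calls in these data are false. Promoter windows came from RefSeq, GRCm38.p6, without those on chromosome 18.

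The comparison, the gene lists and the alternatives were chosen with earlier results of these data known. Genes were named by rule: the deleted gene and its receptor, genes called by at least 2 of 3 other fits, up to 10 genes of lowest p without overlap in each direction (mean log2 CPM 1 or more), up to 4 members of a list by lowest p and the member of highest level, genes that 1 library held at least 8-fold above or below all others, and neighbours within 1 Mb with a low p. The genes Abcb1a, Ahr, Anxa3, Btc, Ccser2, Cd3g, Chga, Cpeb3, Ehhadh, Etfdh, Etv5, Ghitm, Gstp1, Hoxb13, Hoxd10, Hoxd13, Ifit3, Jag1, Jchain, Lck, Slc26a6, Spred1, Tnks2 and Trac were chosen after their values were seen. Some genes that these rules pick are not reported here.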

Additional observations from a re-analysis of the deposited data

How the results depend on the processing

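The count of 1 gene by edgeR was also 1 with DESeq2's size factors, limma-voom, both other filters, halved counts and the length trend removed. It was 33 with DESeq2, 2 with all 12 libraries and between 0 and 1 without 1 library, with 0 only without KO replicate 2. Gpr15l lay between -12.11 and -11.40 without 1 library, and its adjusted p by edgeR was 0.0568 without KO replicate 2. Cdhr1 was at 5.27 with DESeq2 (adjusted p 3.559e-19) and 5.26 in the edgeR fit of all 12 libraries (adjusted p 0.00537), and its adjusted p was 0.207 to 0.939 in the other alternatives.

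Replicate numbers are shared between genotypes, but same-numbered libraries did not deviate together, with correlations of 0.029, -0.15 and -0.12 across genes. With the replicate number as a block, 0 genes passed by edgeR, Gpr15l was at -11.74 with an adjusted p of 0.106, and Reg3g, Fabp2 and Mki67 changed sign to -0.22, -0.54 and -0.0044.

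With the length trend removed, Gstp1 was at 0.026, Rplp0 at 0.019, Krt8 at 0.027, Ccser2 at -0.027, Tnks2 at -0.12 and Mki67 at -0.33, each of the opposite sign, and with limma-voom Mki67 was at -0.023.

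Without 1 library at a time, some log2 fold changes turned in sign. Ranges over the 6 libraries left out are in brackets. Without WT replicate 2, Gbp2 (-2.06 to 0.046), Hoxd10 (-3.80 to 0.32) and Hao2 (-0.20 to 1.21) turned. Without KO replicate 2, Reg3b (-2.73 to 6.94), Reg3g (-2.99 to 6.32), Fabp2 (-1.85 to 3.58) and Hao2 turned. Tnks2 (-0.013 to 0.29), Krt8 (-0.56 to 0.029) and Mki67 (-0.20 to 0.42) turned without 1 or more of WT replicate 1 and KO replicates 1 and 3. The medians of 33 of 67 lists changed sign without 1 library. The causes were not tested. With 3 libraries per group, p-values cover only the spread between these libraries.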
